A study of Mus musculus with 12 samples.

Results

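Mitochondrial ribosomal protein genes are the nuclear genes named Mrpl (large subunit) and Mrps (small subunit), and 72 of the 17097 genes that carried a probe set with a single symbol on the array belonged to this family. They were taken by name: every probe set whose only annotated symbol began with Mrpl or Mrps and a digit, which gave 128 of 45141 probe sets. Mrps6 was left out because it lies in the trisomic segment of the Ts1Cje model, and 6 probe sets that name an Mrp gene beside another gene were left out too. All 72 genes kept at least 1 probe set above the filter on dim values, among 12560 genes tested, and Mrpl47 was the only member whose intensity stayed near that filter. Mrpl22, Mrpl45, Mrpl51, Mrps18c and Mrps28 were not analysed here.

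The mitochondrial ribosome translates the few messages of the mitochondrial genome, all of which encode subunits of the respiratory chain and the ATP synthase. Its ribosomal RNAs come from mitochondrial DNA, whereas its proteins are encoded in the nucleus, made on cytosolic ribosomes and imported. Some of these proteins have a counterpart in the bacterial ribosome, and others were added during the evolution of mitochondria. The names do not follow the structure in full: Mrps30 and Mrps18a are part of the large subunit, Mrpl58 (ICT1) is a peptidyl-tRNA hydrolase built into it, and Mrps36 is a protein of the 2-oxoglutarate dehydrogenase complex. Leukaemic cells of the myeloid lineage are known to depend on mitochondrial translation.

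The study measured total RNA from 12 mouse cell samples on Affymetrix arrays, 3 in each of 4 groups. The groups were Trib1-expressing AML (acute myeloid leukaemia) lines on the Ts1Cje background (Ts1Cje Trib1) and on the B6 background (B6 Trib1), both titled Trib1 WT by the submitters, hematopoietic cells of Ts1Cje mice (Ts1Cje), and hematopoietic cells of wild-type B6 mice (B6). Ts1Cje mice carry an extra copy of part of chromosome 16 and model Down syndrome. Trib1 is a pseudokinase that directs C/EBP alpha to degradation and drives myeloid leukaemia in mice. All cells grew in IMDM with 10% serum and 5 ng/ml IL-3, received no treatment, and gave 100 ng of RNA per array. Trib1 and the leukaemic state went together, so they cannot be told apart. The labels give no age, no vector, and no number of lines or mice, so p-values measure only the spread between arrays of a group, which may be technical.

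Values are the deposited intensities on a linear scale, and a difference is one of group means of log2(intensity + 15). A member was called when its Benjamini-Hochberg adjusted p over the 12560 genes was under 0.05 in limma. Array medians lay between 30.5 and 31.99, and correlations across genes were 0.997 to 0.999 between arrays of a group and 0.915 to 0.993 between groups. Summed over 8 general hematopoietic and myeloid progenitor markers, intensities were 9427 to 10288 in Ts1Cje Trib1, 12447 to 12494 in B6 Trib1, 13640 to 14001 in Ts1Cje and 12429 to 12720 in B6, and none of the 8 was dim. Of these 8, 4 rose and 4 fell in Ts1Cje Trib1 against Ts1Cje, and 5 rose and 3 fell in B6 Trib1 against B6. In Ts1Cje Trib1 against B6 Trib1, 5 fell and none rose, and in Ts1Cje against B6, 4 rose and 2 fell. Markers of most single cell types differed as well, and the sums can hide single markers that go the other way. In B6 Trib1 against B6, 6 macrophage markers fell and 2 rose, and 6 neutrophil granule markers fell and 1 rose. In Ts1Cje Trib1 against B6 Trib1, 3 mast cell and basophil markers rose and 2 fell. For 8 neutrophil granule markers the sum was 9630 to 9941 in Ts1Cje Trib1 and 16408 to 16609 in B6 Trib1, against 31283 to 32140 in Ts1Cje and 19277 to 19549 in B6. For 6 of 8 megakaryocyte markers, all 6 higher in both Trib1 comparisons, it was 11064 to 11769 in Ts1Cje Trib1 and 13241 to 13564 in B6 Trib1, against 6098 to 6287 in Ts1Cje and 6895 to 7163 in B6. The sum of 8 macrophage markers was 1040 to 1145 in Ts1Cje Trib1 and 2610 to 2695 in B6 Trib1, against 12923 to 13346 in Ts1Cje and 9638 to 9914 in B6. For 6 measured B cell markers of 8 it was 165 to 183 in Ts1Cje Trib1 and 157 to 185 in B6 Trib1, against 1518 to 1692 in Ts1Cje and 4192 to 4394 in B6, with Ebf1 dim in both kinds of line. For 7 of 8 mast cell and basophil markers it was 22153 to 22960 in Ts1Cje Trib1 and 19576 to 19860 in B6 Trib1, against 4718 to 4984 in Ts1Cje and 2897 to 2933 in B6. For 7 of 8 T and NK cell markers it was 1114 to 1139 in Ts1Cje Trib1, 1064 to 1111 in B6 Trib1, 1047 to 1125 in Ts1Cje and 1046 to 1127 in B6. Of these 7, 5 fell and 1 rose in both Trib1 comparisons. For 5 of 8 erythroid markers it was 4972 to 5149, 4671 to 4900, 3552 to 3647 and 4276 to 4316 in that order. Such marker shifts accompany every comparison below, and their part in it was not tested. In RNA from a bulk sample, fewer cells of one type and less RNA per cell cannot be told apart.

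Promoters of 64 members were found in RefSeq (GRCm38.p6) as 250 bases before to 50 after the annotated start. Among members called the same way in Trib1 lines of both backgrounds, those of Mrpl52, Mrps15 and Mrpl58, which fell furthest, and of Mrpl50, Mrpl14 and Mrps11, which rose furthest on the Ts1Cje background, are shown as examples of each direction. The rises of Mrpl50 and Mrps11 on the B6 background were lost in the mean of their probe sets. Capitals mark any match, on either strand, to the letters CCGGAAG (the core bound by ETS factors such as GABPA), AAGATGGC (YY1) or CACGTG (E-box, bound by MYC and other factors). Mrpl52 lies at chr14:54426659-54426958 on the plus strand, Mrps15 at chr4:126046678-126046977 on the plus strand, and Mrpl58 at chr11:115403502-115403801 on the plus strand. Mrpl14 lies at chr17:45686099-45686398 on the plus strand, Mrpl50 at chr4:49521034-49521333 on the minus strand, and Mrps11 at chr7:78782881-78783180 on the plus strand.
Mrpl52: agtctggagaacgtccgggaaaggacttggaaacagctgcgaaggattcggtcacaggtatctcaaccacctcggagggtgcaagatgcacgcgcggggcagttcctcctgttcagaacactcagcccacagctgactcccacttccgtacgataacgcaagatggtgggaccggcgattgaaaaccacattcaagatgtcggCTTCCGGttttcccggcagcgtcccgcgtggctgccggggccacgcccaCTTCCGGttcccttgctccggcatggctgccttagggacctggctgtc
Mrps15: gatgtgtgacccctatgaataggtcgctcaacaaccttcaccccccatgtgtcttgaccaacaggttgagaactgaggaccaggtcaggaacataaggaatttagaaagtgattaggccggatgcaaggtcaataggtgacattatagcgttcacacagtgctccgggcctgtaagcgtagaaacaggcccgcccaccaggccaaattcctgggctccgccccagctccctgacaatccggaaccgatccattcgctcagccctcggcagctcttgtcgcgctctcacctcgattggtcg
Mrpl58: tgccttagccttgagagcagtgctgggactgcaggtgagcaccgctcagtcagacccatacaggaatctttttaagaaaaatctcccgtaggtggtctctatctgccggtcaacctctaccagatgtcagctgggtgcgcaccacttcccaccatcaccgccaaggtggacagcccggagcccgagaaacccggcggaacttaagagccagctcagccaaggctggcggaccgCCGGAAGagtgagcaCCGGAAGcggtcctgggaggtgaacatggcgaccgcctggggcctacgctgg
Mrpl14: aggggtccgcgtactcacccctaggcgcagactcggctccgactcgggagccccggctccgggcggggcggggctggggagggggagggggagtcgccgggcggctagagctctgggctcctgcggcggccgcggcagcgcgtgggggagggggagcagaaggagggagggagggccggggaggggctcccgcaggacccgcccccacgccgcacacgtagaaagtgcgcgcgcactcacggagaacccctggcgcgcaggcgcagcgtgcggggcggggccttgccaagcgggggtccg
Mrpl50: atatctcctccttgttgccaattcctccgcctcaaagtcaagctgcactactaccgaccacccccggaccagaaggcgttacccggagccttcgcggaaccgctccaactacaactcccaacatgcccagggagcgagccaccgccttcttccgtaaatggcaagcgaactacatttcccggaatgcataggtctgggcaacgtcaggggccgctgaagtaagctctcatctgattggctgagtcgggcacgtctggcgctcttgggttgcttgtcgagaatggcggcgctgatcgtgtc
Mrps11: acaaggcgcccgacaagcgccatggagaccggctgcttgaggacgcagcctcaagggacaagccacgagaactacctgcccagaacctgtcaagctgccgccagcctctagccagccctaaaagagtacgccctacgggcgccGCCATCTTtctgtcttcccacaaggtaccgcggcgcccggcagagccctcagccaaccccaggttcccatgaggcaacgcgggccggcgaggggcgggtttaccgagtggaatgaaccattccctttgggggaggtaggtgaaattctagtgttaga

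Among these 6 windows, those of Mrpl52 and Mrpl58 each held 2 ETS cores, that of Mrps11 held 1 YY1 match, and those of Mrps15, Mrpl14 and Mrpl50 held no match to these 3 letter strings. Over the family, CCGGAAG stood in 22 of 64 promoters (34.4%), against 9.12% of 27025 promoters of all genes. That reference includes genes not tested here, and no share was taken over bright genes alone. AAGATGGC stood in 12 of 64 (18.8%), against 2.88% of all. CACGTG stood in 4 of 64 (6.25%), against 7.24% of all. Those 4 genes, Mrpl2, Mrpl20, Mrpl36 and Mrpl37, were among the 33 of 64 members with a promoter that fell in B6 Trib1 lines. No link between a string and a direction was tested. GGGCGG, the SP1 core, stood in 48.4% of member promoters against 35.9% of all, and CCAAT in 42.2% against 37.9%. None of the 5 strings contains another, both strands were searched for each, and SP1 and CCAAT matches are not capitalised above. The ETS core was present in 11 of 33 promoters of members that fell in B6 Trib1 lines, in 4 of 8 of those that rose, and in 7 of 23 of those not called. A match is only a run of letters in this window.

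As a family the members varied little. The ratio of the highest to the lowest of the 4 group means had a median of 1.17 over the 72 members, was under 1.2 for 39 of them, and exceeded 1.5 for 2, Mrpl52 (2.29) and Mrps15 (1.64). The same ratio had a median of 1.28 over all genes tested and exceeded 1.5 for 29.2% of them, against 2.78% of the members. Among the 7628 genes with a mean of at least 100, which include 71 members, the median was 1.33 and 33.9% exceeded 1.5. These shares are descriptions and were not tested. At the flat end, Mrpl44 (ratio 1.01), an RNase III-like protein of the large subunit, had 845, 858 and 919 in Ts1Cje Trib1, 883, 895 and 871 in B6 Trib1, 875, 878 and 875 in Ts1Cje, and 867, 871 and 898 in B6. The 4 groups overlapped for Mrpl44.

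On the deposited scale the small differences were not spread evenly over the groups. B6 had the highest mean of the 4 groups for 37 of the 72 members, Ts1Cje Trib1 for 17, Ts1Cje for 15 and B6 Trib1 for 3. B6 Trib1 had the lowest mean for 32 members, Ts1Cje for 20, Ts1Cje Trib1 for 14 and B6 for 6. The same counts were not taken over all genes. Summed over the family, intensities were 44812 to 45479 in Ts1Cje Trib1, 43182 to 43786 in B6 Trib1, 45409 to 46483 in Ts1Cje and 47452 to 48530 in B6, so that no pair of groups except Ts1Cje Trib1 and Ts1Cje overlapped. On the log2 scale, the median member stood above the median gene of its own array by 1.76 to 1.81 in Ts1Cje Trib1, 1.74 to 1.76 in B6 Trib1, 1.80 to 1.85 in Ts1Cje and 1.76 to 1.81 in B6. By this second measure, which removes any shift shared by an array's genes, the order of the groups was another one.

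**Figure D1:**
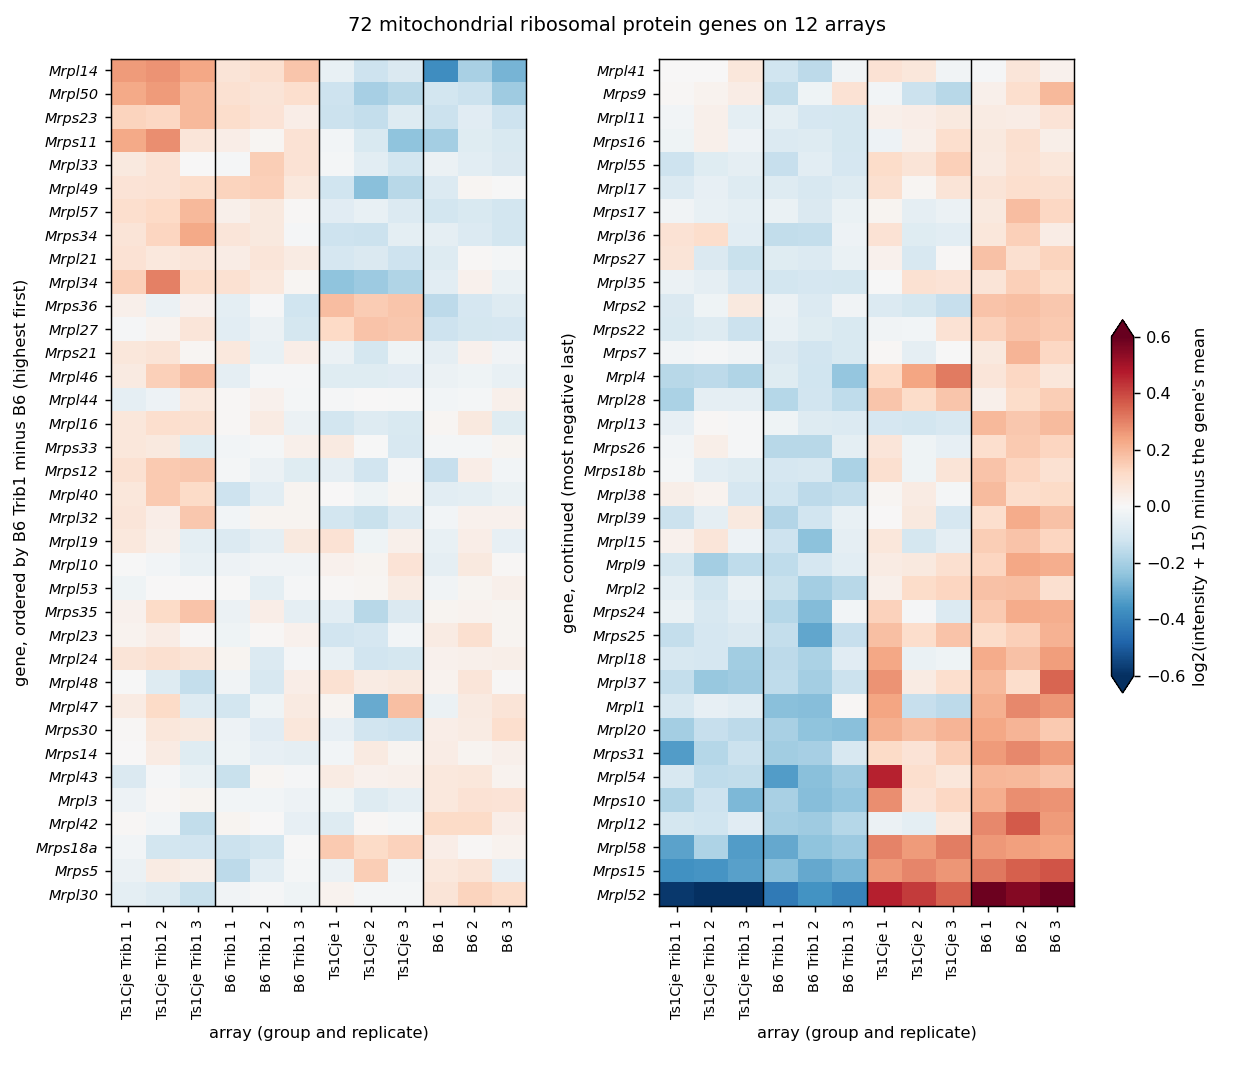
Each row is 1 of the 72 members and each column 1 of the 12 arrays, with colour for log2(intensity + 15) minus the gene's mean over the arrays, rows ordered by B6 Trib1 minus B6 and colours capped at 0.6. Most rows are pale; Mrpl52, Mrps15 and Mrpl58 at the lower right are lower on all 6 Trib1 arrays, and Mrpl14 and Mrpl50 at the upper left are higher on all 6.

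B6 Trib1 lines against B6 cells showed the family's main shift. Of the 72 members 38 fell and 9 rose, against 31.1% and 34.1% of all genes tested called lower and higher, and 25 were not called. The share of members called in either direction (65.3%) was near that of all genes (65.2%). The median difference was -0.13 for members and 0.030 for all genes, a gap of -0.16, and 59 members lay below the median gene. Groups did not overlap for 42 members lower and 9 higher in B6 Trib1, against 34% and 38.6% of all genes. Centring each array on its median moves all its genes alike, so it cannot change the gap. It put the median of all genes at 0.13, with 24 members lower and 15 higher (21.9% and 50.6% of all genes). Quantile normalization gave 34 lower and 10 higher (27.2% and 37.8% of all genes). Under all 3 scalings 24 members were called lower (21.8% of all genes) and 9 higher (31.9%).

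In Ts1Cje Trib1 lines against Ts1Cje cells, members were called in both directions in similar numbers. Of the members 21 rose and 23 fell, against 34.1% and 26.8% of all genes (61.1% of members and 60.9% of all genes in either direction), and 28 were not called. The median difference was -0.025 for members and 0.022 for all genes, a gap of -0.047. Groups did not overlap for 22 members higher and 28 lower, against 35.8% and 28.5% of all genes. Median centring gave 20 members higher and 19 lower (34.1% and 24.8% of all genes), and quantile normalization 17 and 24 (34.3% and 27.2%). Under all 3 scalings 17 were called higher and 19 lower (32.8% and 24.6% of all genes). Leaving out Ts1Cje replicate 1 moved the gap to -0.024.

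**Figure D2:**
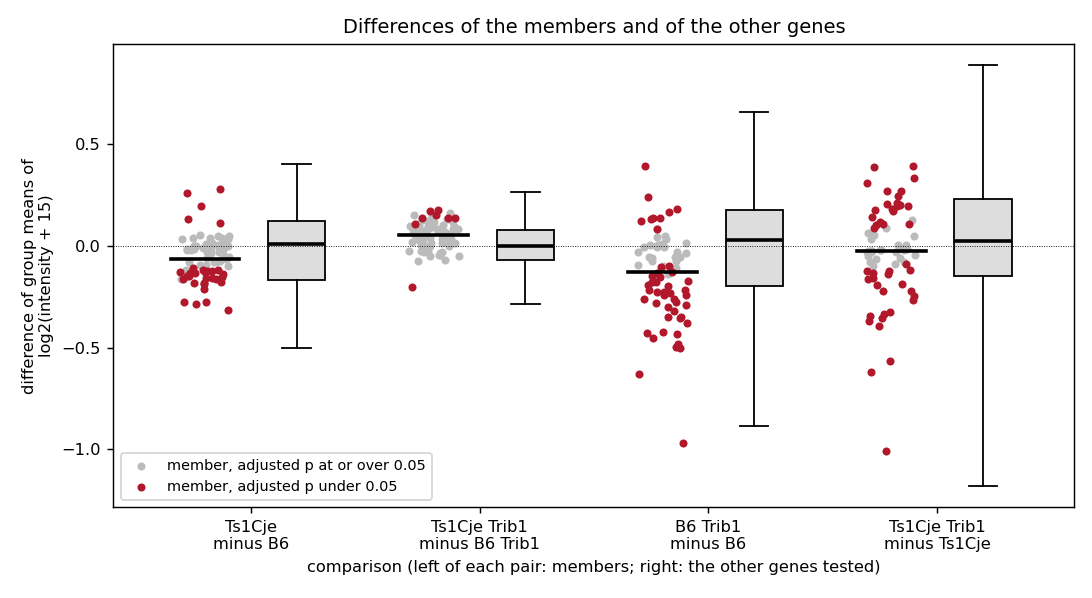
For each of 4 comparisons, points are the 72 members (red where called) with their median as a bar, and the box beside them shows the quartiles and median of the other genes tested with whiskers at the 5th and 95th percentiles, all as differences in log2(intensity + 15). Members sit in a narrower range than the other genes; their median lies lowest for B6 Trib1 minus B6 (-0.13), while the negative median for Ts1Cje minus B6 turns positive under median centring.

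The Trib1 comparisons on the B6 and Ts1Cje backgrounds share no arrays. Called the same way in both were 20 members that fell and 9 that rose, against 19.7% and 19.4% of all genes. Across the 72 members the differences on the 2 backgrounds correlated with a Pearson's r of 0.85 and a Spearman's rho of 0.76. Pearson's r over all genes was 0.83. These correlations run across genes of the same 12 arrays and describe them without a test. Called only on the B6 background were 17 members that fell and none that rose, against 8.2% and 13.1% of all genes. Called only on the Ts1Cje background were 11 that rose and 3 that fell (Mrpl27, Mrpl48 and Mrps36), against 11.4% and 5.49% of all genes. These counts take 1 probe set per gene. A further probe set of Mrpl48 fell on both backgrounds (-0.34 on Ts1Cje and -0.31 on B6). A further one of Mrpl27 was called lower on the B6 background (-0.15) and not on the Ts1Cje background (-0.065). Mrpl13 alone had its chosen probe set called in opposite directions (3.25% of all genes). It was lower in B6 Trib1 and higher in Ts1Cje Trib1 by 0.086. The second of these calls was lost under both other scalings and when any 1 of 8 arrays was left out. The chosen probe sets of the remaining 11 were called in neither: Mrpl10, Mrpl19, Mrpl42, Mrpl43, Mrpl44, Mrpl47, Mrpl53, Mrps5, Mrps9, Mrps14 and Mrps33. Further probe sets of Mrpl19 (-0.19), Mrps5 (-0.32) and Mrps9 (-0.19) were called lower in B6 Trib1. That of Mrps9 was called higher in Ts1Cje Trib1 (0.135), and another, dim one of Mrpl19 was called lower there (-0.22). Further kept probe sets of Mrpl44 and Mrps14 were not called.

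**Figure D3:**
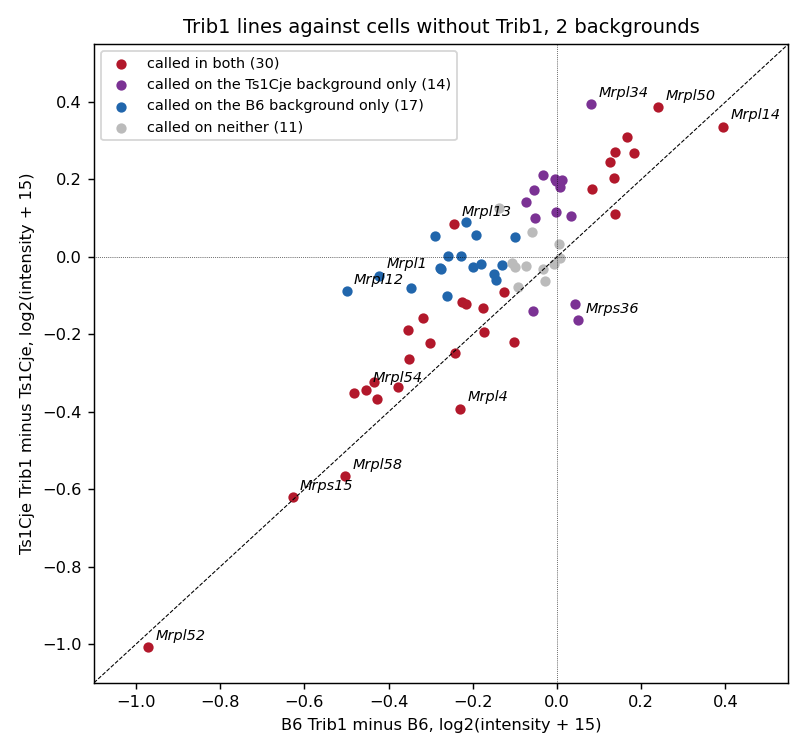
Each point is 1 member, with B6 Trib1 minus B6 on the x axis and Ts1Cje Trib1 minus Ts1Cje on the y axis, both in log2(intensity + 15), coloured by where it was called, and the dashed line marks equal differences. Mrpl52 stands alone near -1 on both axes, and most other points lie above the line.

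Mrpl52, a large-subunit protein without a bacterial counterpart, was the member that changed most. Its intensity was 451, 444 and 445 in Ts1Cje Trib1 and 505, 529 and 512 in B6 Trib1, against 947, 916 and 877 in Ts1Cje and 1033, 1005 and 1035 in B6. Every Trib1 array lay below every array without Trib1, with a wide gap. The difference was -1.01 ± 0.0375 (SE) between Ts1Cje Trib1 and Ts1Cje (adjusted p = 2.54e-11) and -0.97 ± 0.0375 between B6 Trib1 and B6 (adjusted p = 6.88e-11). Both other kept probe sets of Mrpl52 fell too, by 1.16 and 1.14 on the log2 scale on the Ts1Cje background and by 1.18 and 0.97 on the B6 background. Mrpl52 was also lower in Ts1Cje Trib1 than in B6 Trib1 (difference -0.20, adjusted p = 0.00163).

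Mrps15, the counterpart of the bacterial S15 protein that binds the small-subunit RNA, had 547, 550 and 561 in Ts1Cje Trib1 and 592, 568 and 582 in B6 Trib1, against 849, 870 and 852 in Ts1Cje and 883, 911 and 924 in B6. The Trib1 arrays did not overlap with the others, and the differences were -0.62 on the Ts1Cje background and -0.63 on the B6 background (adjusted p = 1.77e-09 and 2.4e-09). A second probe set of Mrps15 fell in both as well (-0.47 and -0.58), whereas another, dim one was not called on the B6 background (0.10). Mrpl58, which frees stalled peptides from the ribosome, had 390, 430 and 386 in Ts1Cje Trib1 and 394, 413 and 421 in B6 Trib1, against 606, 590 and 611 in Ts1Cje and 591, 585 and 582 in B6. It fell by 0.57 on the Ts1Cje background and by 0.50 on the B6 background (log2 scale, adjusted p = 7.02e-08 and 3.49e-07), and the genotypes overlapped with and without Trib1 in part: Ts1Cje Trib1 spanned the B6 Trib1 values, and 2 of 3 Ts1Cje arrays lay above all B6 arrays.

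A further 6 members had the next largest falls on the Ts1Cje background among those that fell in both. Mrpl20, the counterpart of bacterial L20, had 734, 769 and 759 in Ts1Cje Trib1 and 741, 717 and 710 in B6 Trib1, against 987, 964 and 981 in Ts1Cje and 1000, 981 and 948 in B6 (-0.37 and -0.43). Mrpl4, the counterpart of bacterial L4, had 315, 318 and 312 in Ts1Cje Trib1 and 338, 327 and 300 in B6 Trib1, against 387, 422 and 445 in Ts1Cje and 375, 389 and 374 in B6 (-0.39 and -0.23). Neither gene's Trib1 arrays overlapped with those without Trib1, and median centring removed the call of Mrpl4 on the B6 background (adjusted p = 0.105). Mrps10, the counterpart of bacterial S10, had differences of -0.35 and -0.48, and Mrps31, specific to mitochondria, of -0.32 and -0.43. Mrpl54 and Mrpl37, both without a bacterial counterpart, had -0.34 and -0.45, and -0.33 and -0.38. In each pair the Ts1Cje background comes first, and the adjusted p-values of these 4 genes lay between 3.41e-06 and 0.00209. Ts1Cje replicate 1 was the highest of its group for all 4 of them except Mrps31.

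Members that rose in Trib1 lines of both backgrounds changed less. Mrpl14, the counterpart of bacterial L14 and the docking site of the assembly factor Malsu1, had 434, 439 and 426 in Ts1Cje Trib1 and 382, 386 and 406 in B6 Trib1, against 350, 330 and 339 in Ts1Cje and 275, 313 and 295 in B6. All 4 groups were separate and in this order, with differences of 0.34 on the Ts1Cje background and 0.40 on the B6 background (adjusted p = 2.3e-05 and 6.57e-06). Mrpl50, without a bacterial counterpart, had 631, 643 and 617 in Ts1Cje Trib1 and 573, 567 and 577 in B6 Trib1, against 492, 466 and 477 in Ts1Cje and 497, 489 and 461 in B6. Its Trib1 arrays were all higher (0.39 and 0.24, adjusted p = 8.65e-07 and 0.000115), but a second probe set read -0.20 on the B6 background (adjusted p = 0.0849), and the mean of both lost that call (adjusted p = 0.754).

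The other 7 members called higher in both were Mrpl21, Mrpl33, Mrpl49, Mrpl57, Mrps11, Mrps23 and Mrps34. Mrps23, a mitochondria-specific small-subunit protein, had 480, 477 and 501 in Ts1Cje Trib1 and 470, 463 and 448 in B6 Trib1, against 397, 394 and 412 in Ts1Cje and 397, 415 and 398 in B6, with no overlap (0.27 and 0.18). Mrps11, the counterpart of bacterial S11, rose by 0.31 on the Ts1Cje background (adjusted p = 0.000898). On the B6 background its 0.17 was lost without B6 replicate 1 or 3, without any 1 B6 Trib1 array (adjusted p up to 0.14) and in the mean of its probe sets (0.155). Mrpl49, Mrps34 and Mrpl57 rose by 0.27, 0.25 and 0.20 on the Ts1Cje background, calls that held under every alternative, and by 0.14, 0.13 and 0.13 on the B6 background. Of these 3 B6 calls, that of Mrpl57 held under every alternative, that of Mrpl49 was lost without B6 replicate 1 (adjusted p = 0.0623) and in the mean of its probe sets (0.292), and that of Mrps34 without B6 replicates 2 or 3 or B6 Trib1 replicates 1 or 2 (up to 0.0785). Mrpl33 rose by 0.11 on the Ts1Cje background (adjusted p = 0.0497), a call that 14 of 23 alternatives lost (up to 0.169), and by 0.14 on the B6 background, a call lost without B6 replicate 3 or B6 Trib1 replicate 2 (up to 0.0838).

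**Figure D4:**
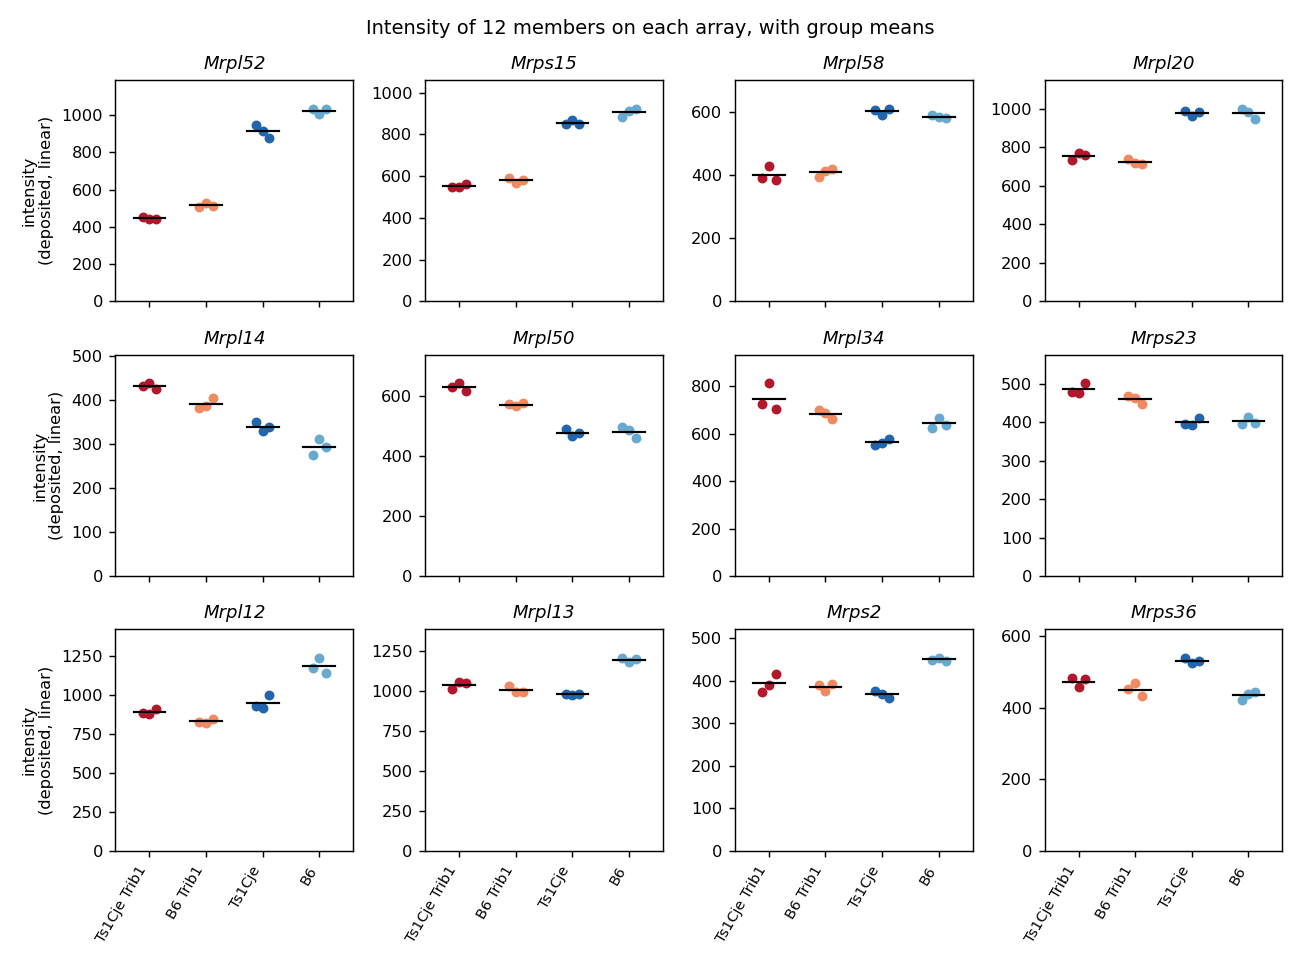
Each panel shows 1 member with the deposited intensity of every array as a point, group means as bars, and the y axis starting at 0. The top row fell in Trib1 lines of both backgrounds, the middle row rose in Ts1Cje Trib1, and the bottom row holds members with a called interaction, among which Mrpl12, Mrpl13 and Mrps2 were highest in B6 and Mrps36 was highest in Ts1Cje.

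The members were also sorted by place in the ribosome. In B6 Trib1 against B6, where 31.1% of all genes fell and 34.1% rose, 17 of 29 large-subunit proteins with a bacterial counterpart fell and 3 rose, as did 8 and 3 of 19 large-subunit proteins specific to mitochondria. Among small-subunit proteins, 7 fell and 1 rose of 13 with a bacterial counterpart, and 6 fell and 2 rose of 10 specific to mitochondria. Their medians minus that of all genes were -0.18, -0.12, -0.18 and -0.24. The counts depended on scaling. Under median centring 9, 6, 4 and 5 fell and 5, 4, 2 and 3 rose, against 21.9% and 50.6% of all genes. In Ts1Cje Trib1 against Ts1Cje, where 34.1% of all genes rose and 26.8% fell, the same 4 classes had 9, 6, 3 and 3 members higher and 11, 6, 2 and 3 lower, with medians of -0.071, -0.050, -0.038 and -0.034 relative to all genes. No difference between classes was tested.

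Single members are described next by smaller sites of the ribosome. In the L7/L12 stalk, which recruits translation factors, Mrpl12 was lower in B6 Trib1 than in B6 (-0.50) and Mrpl11 was slightly lower (-0.15, a call lost under median centring), whereas Mrpl10 was called in no comparison. Mrpl10 read 486, 482 and 473 in Ts1Cje Trib1, 478, 481 and 481 in B6 Trib1, 496, 494 and 517 in Ts1Cje, and 470, 509 and 490 in B6, with Ts1Cje Trib1 below Ts1Cje (-0.063, adjusted p = 0.168) and the groups of the other 3 comparisons overlapping. The shares of all genes given above for the classes apply to the following counts too. Of 6 measured proteins of the central protuberance, 2 fell in B6 Trib1 against B6 and none rose. In Ts1Cje Trib1 against Ts1Cje 2 rose and 3 fell. Under median centring 2 fell and 2 rose in each of these comparisons. Of 5 measured proteins around the peptide exit tunnel, 2 fell and none rose in B6 Trib1, and 2 rose and 1 fell in Ts1Cje Trib1. Median centring left 1 fall and no rise in B6 Trib1, and 1 rise and 1 fall in Ts1Cje Trib1. Of the S18 paralogues, Mrps18a fell in Ts1Cje Trib1 against Ts1Cje (-0.22, adjusted p = 0.000509) and Mrps18b fell in B6 Trib1 against B6 (-0.26, adjusted p = 0.000182). Mrps18a was also called lower in B6 Trib1 (-0.10, adjusted p = 0.0484), a call that 16 of 23 alternatives lost and median centring reversed (0.00060).

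Ts1Cje cells against B6 cells sets the trisomic beside the wild-type background without Trib1, and here most members lay slightly lower on the deposited scale. Of the 72, 26 fell and 5 rose, against 29.3% and 23.3% of all genes (43.1% of members and 52.6% of all genes in either direction), and 41 were not called. The median difference was -0.064 for members and 0.0088 for all genes, a gap of -0.072, but the members' median turned positive (0.016) under median centring, with 4 members lower and 12 higher (20.2% and 37.5% of all genes). Quantile normalization gave 18 lower and 5 higher (24.8% and 27.5% of all genes). Groups did not overlap for 30 members lower and 6 higher in Ts1Cje, against 32.4% and 28% of all genes. Under all 3 scalings 4 members were called lower and 5 higher (19.9% and 22.1% of all genes). The count of falls dropped to 15 without Ts1Cje replicate 2, to 16 without B6 replicate 2 and to 17 without B6 replicate 3, and under a stricter filter on dim genes the gap to all genes was -0.012.

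The 4 members lower in Ts1Cje under all scalings were Mrpl1, Mrpl12, Mrpl13 and Mrps2. Mrpl12, the stalk protein that in human cells also binds the mitochondrial RNA polymerase, had 934, 919 and 999 in Ts1Cje, against 1173, 1238 and 1144 in B6 (-0.31, adjusted p = 4.31e-05). In Trib1 lines it had 888, 879 and 911 in Ts1Cje Trib1, against 830, 824 and 847 in B6 Trib1, so the genotypes were separate both times but in opposite order, the second without a call (0.097, adjusted p = 0.13). Mrpl13, the counterpart of bacterial L13, had 977, 972 and 983 in Ts1Cje, against 1203, 1178 and 1199 in B6 (-0.28, adjusted p = 1.45e-05), and its 2 further probe sets fell as well (-0.245 and -0.38). Mrps2, the counterpart of bacterial S2, had 376, 369 and 360 in Ts1Cje, against 449, 453 and 447 in B6 (-0.28, adjusted p = 9.37e-05), although a second probe set read 0.0027. For Mrpl1 the call of the chosen probe set rested on 2 of the 3 Ts1Cje arrays, with 229, 173 and 171 in Ts1Cje against 226, 238 and 234 in B6. That call was lost without either B6 replicate 2 or 3 or without either Ts1Cje replicate 2 or 3 (adjusted p up to 0.107). A second, dimmer probe set of Mrpl1 fell as well (-0.27, adjusted p = 0.00233).

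Mrps36, Mrpl27, Mrpl14, Mrpl4 and Mrps18a were higher in Ts1Cje cells. Mrps36, which joins the E3 enzyme to the 2-oxoglutarate dehydrogenase complex, had 539, 525 and 532 in Ts1Cje, against 421, 439 and 445 in B6 (0.28, adjusted p = 6.45e-05). Mrpl27, the counterpart of the bacterial protein that reaches the peptidyl transferase centre, had 1183, 1229 and 1220 in Ts1Cje, against 999, 1011 and 1014 in B6 (0.26, adjusted p = 6.09e-05), while a second, dimmer probe set read -0.0055. Mrpl14 rose by 0.20 (adjusted p = 0.00311). Mrpl4 and Mrps18a rose by 0.13 and 0.11, and these 2 calls were lost without any single B6 array and under several other alternatives (adjusted p up to 0.192 and 0.102). Pseudogenes of Mrpl27 and Mrps36 are annotated in the mouse, so their probe sets may also read other transcripts.

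Ts1Cje Trib1 lines against B6 Trib1 lines, the comparison of trisomy within leukaemia, gave few member calls. Of the 72, 7 rose and 1 fell, against 11.9% and 9.63% of all genes (11.1% of members and 21.5% of all genes in either direction), and 64 were not called. The median difference was 0.054 for members and 0.00050 for all genes, a gap of 0.053, and 56 members lay above the median gene. Groups did not overlap for 24 members higher and 3 lower in Ts1Cje Trib1, against 19.6% and 16.8% of all genes. Median centring gave 2 higher and 1 lower (9.96% and 9.49% of all genes), quantile normalization 6 and 1 (11.3% and 10.8%), and 1 was called in each direction under all 3 scalings (9.42% and 8.88%). The members that rose were Mrps12 (0.17), the counterpart of the bacterial decoding-site protein S12, Mrpl40 (0.17), Mrpl46 (0.15), Mrpl14 (0.14), Mrpl50 (0.14), Mrps26 (0.14) and Mrpl57 (0.11). Mrpl40 had 761, 810 and 786 in Ts1Cje Trib1, against 664, 693 and 735 in B6 Trib1, with no overlap. Each of the 7 calls was lost when at least 1 array was left out, and the rises numbered 1 without B6 Trib1 replicate 1. They numbered 2 without B6 Trib1 replicate 2, 2 without Ts1Cje Trib1 replicate 2, and 4 without B6 replicate 3. Mrpl52 was the 1 that fell, and its call held under every alternative run.

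Of members called in both genotype comparisons, which share no arrays, Mrpl14 was higher in both (2.42% of all genes), Mrpl52 was lower in both (1.97%) and Mrps26 was lower without and higher with Trib1 (4.98%). The call of Mrpl14 in Ts1Cje Trib1 against B6 Trib1 was lost under 14 of 23 alternatives, both other scalings among them (adjusted p up to 0.159), and that of Mrpl52 in Ts1Cje against B6 under median centring (0.112). Mrps26, a mitochondria-specific small-subunit protein, had 703, 728 and 707 in Ts1Cje Trib1, against 631, 631 and 682 in B6 Trib1, and 749, 699 and 688 in Ts1Cje, against 763, 794 and 779 in B6. Both its genotype calls were lost under median centring. Across the 72 members the genotype differences with and without Trib1 gave a Pearson's r of 0.0805, against -0.26 over all genes.

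The interaction, taken as Ts1Cje minus B6 in Trib1 lines less the same difference in cells without Trib1, was positive for 58 of the 72 members. It was called higher for 26 and lower for 2, against 28.4% and 20.2% of all genes (38.9% of members and 48.6% of all genes in either direction), with a median of 0.11 for members and 0.0082 for all genes. The members' median was 0.019 under median centring and 0.057 under quantile normalization, and its gap to all genes, 0.10, was 0.036 under the stricter filter. The count of positive calls depended on scaling: 15 positive and 4 negative under quantile normalization (23.6% and 23.5% of all genes), 7 and 5 under median centring (19.3% and 29.5%), and 6 and 2 under all 3 (18.9% and 19.2% of all genes). Without B6 replicate 2 there were 15 positive calls and without B6 Trib1 replicate 2 there were 17. The 6 called positive under all 3 scalings were Mrpl12 (0.41, adjusted p = 0.000102), Mrpl15 (0.34), Mrpl13 (0.33), Mrpl34 (0.31), Mrps2 (0.31) and Mrps26 (0.26), though that of Mrpl15 was lost in the mean of its probe sets (adjusted p = 0.0537). Mrpl27 (-0.16) and Mrps36 (-0.21) were the 2 negative ones, and that of Mrpl27 was lost in the mean of its probe sets and without Ts1Cje Trib1 replicate 1 (adjusted p = 0.0506).

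Mrpl34, the counterpart of bacterial L34, shows how such an interaction looked on the arrays. It had 724, 811 and 704 in Ts1Cje Trib1 and 699, 685 and 659 in B6 Trib1, against 550, 561 and 577 in Ts1Cje and 625, 667 and 636 in B6. All Ts1Cje Trib1 arrays were above all Ts1Cje arrays (0.40, adjusted p = 1.24e-05), whereas B6 Trib1 overlapped with B6 (0.081, adjusted p = 0.17). A second, dimmer probe set of Mrpl34 also rose in Ts1Cje Trib1 against Ts1Cje (0.21) and was not called in B6 Trib1 against B6 (0.026). Mrpl46 and Mrps12 were likewise called higher in Ts1Cje Trib1 against Ts1Cje (0.20 each) and not in B6 Trib1 against B6 (0.012 and -0.0012), but their interactions were lost under quantile normalization and median centring.

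Mrpl46 and Mrps11 are neighbours that start 42 bases apart on opposite strands of chromosome 7, and both were higher in Ts1Cje Trib1 than in Ts1Cje. Mrps12 starts 147 bases from Sars2, the mitochondrial seryl-tRNA synthetase, which was called lower there (-0.13, adjusted p = 0.0427) while Mrps12 was called higher. Over 18 such head-to-head pairs with both genes measured, both were called in 9 pairs in Ts1Cje Trib1 against Ts1Cje, 5 of them the same way. In B6 Trib1 against B6 both were called in 4 pairs, 1 of them the same way. Of all genes tested, 60.9% and 65.2% were called in these comparisons in either direction. No share was taken for pairs of other genes.

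Mitoribosome proteins without an Mrp name gave the family a wider frame. Dap3 (S29), a GTP-binding small-subunit protein, had 562, 593 and 578 in Ts1Cje Trib1 and 636, 626 and 627 in B6 Trib1, against 808, 760 and 778 in Ts1Cje and 752, 789 and 765 in B6, and so fell in both Trib1 comparisons (-0.43 and -0.28). Ptcd3 (S39) had 575, 598 and 589 in Ts1Cje Trib1 and 570, 589 and 582 in B6 Trib1, against 448, 430 and 450 in Ts1Cje and 578, 603 and 575 in B6. Ts1Cje cells were thus the low group for Ptcd3, with an interaction of 0.41 (adjusted p = 2.79e-05). Chchd1 and Gadd45gip1 also had positive interactions (0.26 and 0.37), and Aurkaip1 was not analysed here. Mrps6, which was left out of the family, was higher in Ts1Cje Trib1 than in B6 Trib1 (228 ± 6.36 against 119 ± 9.30, SD, n = 3 each) and in Ts1Cje than in B6 (260 ± 8.02 against 202 ± 3.65).

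Other genes of mitochondrial gene expression, from lists drawn up by role, are given beside the ribosomal proteins, with their counts and medians as descriptions. In Ts1Cje against B6, where 29.3% of all genes fell and 23.3% rose, 11 of 19 mitoribosome assembly factors fell and 2 rose, with a median of -0.21 relative to all genes, and 10 of 15 mitochondrial aminoacyl-tRNA synthetases fell and none rose (-0.22). Of 10 genes for replication and transcription of mitochondrial DNA, 8 fell and none rose (-0.24), and of 10 translation factors 5 fell (-0.12). Against Ts1Cje cells, where 34.1% of all genes were higher and 26.8% lower, the Ts1Cje Trib1 lines had 9 assembly factors higher and 4 lower (0.078), 9 synthetases higher and 2 lower (0.19), 7 replication and transcription genes higher and 1 lower (0.25), and 6 translation factors higher and 2 lower (0.14). Under median centring the falls in Ts1Cje numbered 9, 6 and 6 for assembly factors, synthetases and replication and transcription genes, and 1 for translation factors (20.2% of all genes).

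Tfb1m, which methylates the small ribosomal RNA, had 349, 339 and 377 in Ts1Cje Trib1 and 305, 285 and 304 in B6 Trib1, against 257, 234 and 236 in Ts1Cje and 319, 327 and 354 in B6. It fell in Ts1Cje against B6 (-0.44, adjusted p = 2.11e-05) and rose in Ts1Cje Trib1 against Ts1Cje (0.52, adjusted p = 1.34e-06). Tfam, which packages mitochondrial DNA and acts in its transcription, had a mean of 710 ± 6.84 in Ts1Cje Trib1 and 693 ± 21.7 in B6 Trib1. Without Trib1 its mean was 482 ± 42.3 in Ts1Cje and 678 ± 27.9 in B6 (all SD, n = 3 each). Its differences were 0.55 on the Ts1Cje background and 0.030 on the B6 background. Ts1Cje cells stood apart as the low group for both genes.

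The respiratory chain takes up the proteins that the mitochondrial ribosome makes. The counts below stand against the same shares of all genes as before: 29.3% lower and 23.3% higher in Ts1Cje against B6, 31.1% and 34.1% in B6 Trib1 against B6, and 26.8% and 34.1% in Ts1Cje Trib1 against Ts1Cje. Of 32 nuclear complex I subunits, 4 fell and 5 rose in Ts1Cje against B6 (0.0076 relative to all genes), and of 36 subunits of complexes II to V, 1 fell and 3 rose (-0.00030). In B6 Trib1 against B6, 16 and 15 of these fell and 7 and 3 rose (-0.13 and -0.084). In Ts1Cje Trib1 against Ts1Cje, 14 and 19 fell and 5 and 3 rose (-0.10 and -0.13). Under median centring, 10 and 6 fell and 8 and 6 rose in B6 Trib1 against B6 (21.9% and 50.6% of all genes). In Ts1Cje Trib1 against Ts1Cje it gave 10 and 15 lower and 5 and 3 higher (24.8% and 34.1%). In Ts1Cje against B6 it gave 1 and 0 lower and 9 and 8 higher (20.2% and 37.5%). Of 24 measured genes for MYC and nucleolar ribosome assembly, 23 fell in Ts1Cje against B6 (-0.39), and 18 rose and none fell in Ts1Cje Trib1 against Ts1Cje (0.30). The medians of the mitochondrial ribosomal proteins for these 2 comparisons, -0.072 and -0.047, lay between those of the respiratory subunits and of the nucleolar genes. The same order held in Ts1Cje Trib1 against B6 Trib1 (0.053, against 0.019 and -0.017 for respiratory subunits and 0.087 for nucleolar genes). It did not hold in B6 Trib1 against B6, where the members' median (-0.16) was the lowest. There 12 nucleolar genes fell and 2 rose (-0.14). Of 21 genes of mitochondrial protein import, 12 fell and 1 rose in Ts1Cje against B6 (-0.17). In B6 Trib1 against B6, 13 of them fell and 1 rose (-0.15). Under median centring 6 fell and 4 rose in the first of these comparisons, and 8 fell and 3 rose in the second. Of 64 cytosolic ribosomal proteins, 11 rose and 2 fell in B6 Trib1 against B6 (-0.0040). Under median centring 47 rose and 1 fell there, against 50.6% and 21.9% of all genes. In Ts1Cje Trib1 against Ts1Cje, 34 rose and 1 fell (0.071), and median centring gave 32 and 1. In Ts1Cje against B6, 19 fell and 1 rose (-0.0695), and median centring gave 1 and 1. The lists were compared as descriptions only.

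**Figure D5:**
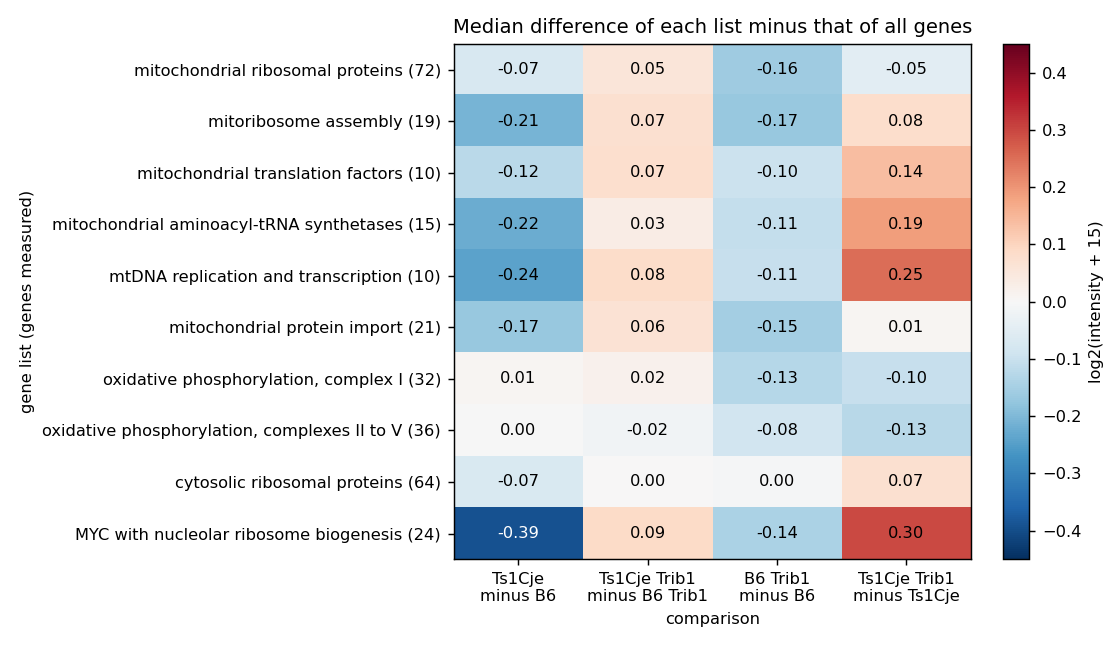
Each cell gives the median log2(intensity + 15) difference of a gene list minus that of all genes tested, for 4 comparisons, with the number of genes measured in brackets. The 72 mitochondrial ribosomal protein genes keep within -0.16 to 0.053, while nucleolar genes reach -0.39 in Ts1Cje minus B6 and 0.30 in Ts1Cje Trib1 minus Ts1Cje.

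Probe sets of the same gene did not always give the same reading. For called members with further kept probe sets, 20 of 32 such probe sets in B6 Trib1 against B6 had the sign of the chosen one, as did 20 of 24 in Ts1Cje Trib1 against Ts1Cje, 12 of 18 in Ts1Cje against B6 and 3 of 4 in Ts1Cje Trib1 against B6 Trib1. A further probe set was called in the opposite direction for Mrpl41 and Mrps2 in B6 Trib1 against B6, for Mrpl35 in Ts1Cje Trib1 against Ts1Cje, and for Mrpl9 and Mrpl15 in Ts1Cje against B6. Directions for these 5 genes are uncertain in those comparisons.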

How the data were processed

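Total RNA of 12 samples was hybridised to 1 Affymetrix array each. The deposited values are probe set intensity values on a linear scale, made with MAS5 per the submitters' processing notes. MAS5 uses mismatch probes, which these perfect-match arrays lack, and the scaling target, genome build and probe-level steps are not given in the sources used here. Symbols came from the platform table.

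Control probe sets were left out. Probe sets were kept if brighter than the 40th percentile of the array on at least 3 of 12 arrays, and each gene was represented by its brightest kept probe set. An offset of 15 was added before log2, which draws differences of dim genes towards 0. The model, in limma 3.58.1 (lmFit, eBayes) under R 4.3.3, held a mean for each group and used all 12 arrays, with two-sided tests, Benjamini-Hochberg adjustment over 12560 genes and a threshold of 0.05. The procedure was tested on simulated data. The number of arrays limits the precision, and no batch was given.

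The members and lists were chosen with earlier results of these data known. Named members were, per comparison, the 8 largest rises and falls among called members whose groups did not overlap, the 6 most positive and negative interactions, and the S18 and stalk proteins. Mrpl44, Mrpl48, Mrpl21 and others outside this rule were named after their values were seen. From other lists came up to 3 called genes each. Alternatives were quantile normalization, median centring, another offset or a floor, no filter or a stricter one at the 60th percentile, the mean of probe sets, x_at and s_at probe sets left out, a variance trend, a model of the compared groups alone, a block for replicate number, and each array left out in turn.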

Additional observations from a re-analysis of the deposited data

Results flagged for a closer look

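These members had genotype differences that were not the same with and without Trib1, by limma's interaction term with a Benjamini-Hochberg adjusted p under 0.05. Of 28 members so called, only the 17 that the naming rule picked for some comparison are listed. Members called but not listed include Mrps7 (0.23) and Mrpl32 (0.21). The difference of differences, in log2(intensity + 15), was 0.41 for Mrpl12, 0.37 for Mrpl1, 0.34 for Mrpl15, 0.33 for Mrpl13 and 0.31 for both Mrpl34 and Mrps2. It was 0.27 for Mrps24, 0.26 for Mrps9 and Mrps26, 0.25 for Mrpl39 and 0.24 for Mrps35. It was 0.20 for Mrps12, 0.19 for Mrpl46, 0.16 for Mrps18b and 0.15 for Mrpl50. It was negative for Mrpl27 (-0.16) and Mrps36 (-0.21). The calls of Mrpl12, Mrpl13, Mrpl34, Mrps2, Mrps26 and Mrps36 held under all 23 alternatives. Median centring or quantile normalization ended those of Mrpl1, Mrps9, Mrps12, Mrps18b, Mrps24, Mrps35, Mrpl39, Mrpl46 and Mrpl50. Leaving out 1 array also ended those of Mrpl1, Mrps9, Mrps12, Mrps18b, Mrps24, Mrpl39, Mrpl50 and Mrpl27. Averaging the probe sets ended those of Mrpl15, Mrpl27 and Mrpl39. The replicate block ended that of Mrpl50, and an offset of 1, a floor, or leaving out x_at and s_at probe sets that of Mrps18b.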

How the results depend on the processing

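Of the values of named members under the alternatives, 1987 kept direction and side of the threshold, 258 kept direction but were no longer called, and 1 reversed (Mrps18a in B6 Trib1 minus B6, 0.0006 under median centring). The cause was not tested for any change given here. For Ts1Cje minus B6, quantile normalization gave a member median of -0.0268 and a gap to all genes of -0.0530. Median centring gave 12 members higher, 4 lower and a reversed median of 0.0155, and the stricter filter, which tests fewer genes, a gap of -0.0124. For Ts1Cje Trib1 minus B6 Trib1, members higher numbered 2 under median centring, 11 with a variance trend, and 4 each with an offset of 1, a floor, x_at and s_at probe sets left out, or only the compared groups. For B6 Trib1 minus B6, the median was -0.0919 under quantile normalization and -0.0993 over the mean of probe sets, and median centring gave 15 higher, 24 lower and a median of -0.0248. The gap there was -0.1055 with the stricter filter, -0.1317 over the mean of probe sets and -0.1400 without x_at and s_at probe sets. For Ts1Cje Trib1 minus Ts1Cje the stricter filter gave a gap of -0.0736. For the interaction, quantile normalization gave 15 higher, 4 lower, a median of 0.0574 and a gap of 0.0759, and median centring 7 higher, 5 lower and a median of 0.0186. The gap was 0.1350 with no filter and 0.0364 with the stricter one, and the mean of probe sets left 1 lower. Leaving out 1 array at a time gave, for Ts1Cje minus B6, 3 to 5 members higher, 15 to 28 lower and a gap of -0.0809 to -0.0507. It gave 1 to 10 higher for Ts1Cje Trib1 minus B6 Trib1, 5 to 9 higher for B6 Trib1 minus B6 (5 without B6 replicate 3 or B6 Trib1 replicate 2), and a gap of -0.0650 to -0.0241 for Ts1Cje Trib1 minus Ts1Cje. For the interaction it gave 15 to 28 higher and 1 to 3 lower (1 without Ts1Cje Trib1 replicate 1). The 3 rises counted for Ts1Cje minus B6 came without any single B6 array or without Ts1Cje replicate 2 or 3. The replicate numbers did not pair the arrays: over 18 pairs of same-numbered arrays, deviations from group means correlated between -0.45 and 0.35, and 3 of 12 arrays matched their own number best. With the replicate number as a block, 3 members were higher in Ts1Cje minus B6 and 4 in Ts1Cje Trib1 minus B6 Trib1, and 88 of 98 named calls were kept. Signal over background limits Mrpl47 among the members.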
